A study of Homo sapiens with 2 samples.

Results

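The nuclear-encoded subunits of the respiratory chain and of ATP synthase were followed in U87, a human glioblastoma line in long use, cultured for 72 h with the curcumin analog CCA-1.1 or with its vehicle DMSO. Members were all protein-coding genes whose RefSeq symbol starts with NDUFA (assembly factors NDUFAF apart), NDUFB, NDUFC, NDUFS, NDUFV, UQCR, COX4 to COX8 or ATP5, together with SDHA, SDHB, SDHC, SDHD and CYC1. This rule uses names and no measured value. It gave 89 genes out of 19938 protein-coding genes in the table, of which 38 belong to complex I, 4 to complex II, 10 to complex III, 17 to complex IV and 20 to complex V. Both cultures were labelled wild type and came from the same line. There was 1 library per condition, so no value has a replicate error, no p-value was calculated, and an effect of CCA-1.1 cannot be told apart from any other difference between the 2 cultures. The dose of CCA-1.1 in this experiment is not given in the sources used here.

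The respiratory chain sits in the inner mitochondrial membrane. Complex I takes electrons from NADH and complex II from succinate, complex III passes them from ubiquinol to cytochrome c, complex IV hands them to oxygen, and ATP synthase, called complex V, uses the proton gradient that complexes I, III and IV build. Most subunits are encoded in the nucleus and imported, while a small catalytic core is encoded in mitochondrial DNA and was not analysed here, since 0 of its genes matched a transcript of the table. Glioblastoma cells are known for high glucose use, and how far they rely on respiration differs between lines.

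The values are TPM, which are scaled for transcript length and for the library total, so that levels of different genes may be set side by side. TPM keeps no read depth, and it gives a share of the library rather than an amount per cell. Fewer cells with a transcript and less of it per cell cannot be told apart in such bulk RNA. All differences are log2((CCA-1.1 TPM + 1) / (DMSO TPM + 1)), positive where the CCA-1.1 library was higher, and this scale understates differences of genes at low TPM. The glial and neural stem cell markers were under 10 TPM, with S100B listed at 0 in both libraries, GFAP at 0.41 TPM with DMSO and 0.57 TPM with CCA-1.1, SOX2 at 1.87 and 1.45 TPM, OLIG2 at 5.64 and 7.03 TPM and the neural stem cell marker NES at 7.53 and 7.62 TPM. Of the mesenchymal markers, VIM stood at 3217 and 3106 TPM, CD44 at 607 and 473 TPM, and CHI3L1 at 4947 and 4397 TPM. Markers of other cells were mostly near 0 (PTPRC at 0.09 and 0.07 TPM, EPCAM at 0.18 and 0.16 TPM), although CD68 was at 494 and 397 TPM and the neuronal SNAP25 at 22.0 and 16.8 TPM and SYT1 at 11.4 and 11.5 TPM. CD3E was listed at 0, and CDH1, VWF, PECAM1 and RBFOX3 reached at most 0.16, 0.19, 3.41 and 2.45 TPM. The part of these marker differences in the results was not tested.

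Of the 89 members, 77 averaged at least 10 TPM over both libraries and 51 at least 100 TPM; 3 of the rest lay between 1 and 10 TPM and 9 under 1 TPM. The members as a whole held 1.82% of the TPM of the DMSO library and 1.81% of that of the CCA-1.1 library (18245 and 18051 TPM). Levels were high, with 38 of the 77 genes (49.4%) among the top 10% by level, above 181.1 TPM, of the 7906 protein-coding genes that passed the same minimum. Summed levels were 5593 and 5438 TPM for complex I, 668 and 632 TPM for complex II, 2075 and 2007 TPM for complex III, 4475 and 4616 TPM for complex IV, and 5434 and 5358 TPM for complex V. In TPM as deposited, the sum of complex IV was higher in the CCA-1.1 library, by 0.045 on a log2 scale without a pseudocount, while the others had log2 ratios of sums from -0.0801 to -0.0204. In TPM, the largest rise of a single gene of complex IV was that of COX7C, at 589 and 717 TPM. By gene, 5 of the 11 genes of complex IV above 10 TPM were higher and 6 lower (median difference -0.0036). With cytosolic ribosomal protein genes left out of the totals, as described further on, the sum of complex V was higher too (0.0137, and 0.0791 for complex IV), and that of all members together went from -0.0154 to 0.0187. The order of levels was nearly the same in both libraries, with a Spearman correlation of 0.993 across the 77 genes, which are not independent replicates.

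The highest member of each complex with a single start site in RefSeq was NDUFA13 for complex I, SDHB for complex II, UQCRH for complex III, COX6A1 for complex IV and ATP5MK for complex V. Their promoters are shown to place the sites of factors known to act on respiratory genes, namely NRF1, the ETS factor GABP and YY1. The windows run from 250 bases before the start to 30 bases after it (RefSeq, GRCh38.p14), 5′ to 3′ on the strand of the gene, and capitals mark GCGCATGC for NRF1, CCGGAAG for GABP and AAGATGGC for YY1, or their reverse complements.
NDUFA13 (chr19:19515975-19516254, plus strand): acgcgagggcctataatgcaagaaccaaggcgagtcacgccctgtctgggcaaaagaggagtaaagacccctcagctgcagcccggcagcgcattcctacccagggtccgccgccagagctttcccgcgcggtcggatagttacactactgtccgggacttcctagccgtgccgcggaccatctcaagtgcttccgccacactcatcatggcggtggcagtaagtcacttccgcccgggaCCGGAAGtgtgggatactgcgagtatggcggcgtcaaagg
SDHB (chr1:17054003-17054282, minus strand): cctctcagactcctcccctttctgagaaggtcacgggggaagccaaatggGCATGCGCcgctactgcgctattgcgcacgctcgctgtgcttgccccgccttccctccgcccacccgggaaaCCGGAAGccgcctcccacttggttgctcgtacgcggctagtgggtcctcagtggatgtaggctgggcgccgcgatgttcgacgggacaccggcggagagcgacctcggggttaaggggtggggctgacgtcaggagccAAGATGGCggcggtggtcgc
UQCRH (chr1:46303448-46303727, plus strand): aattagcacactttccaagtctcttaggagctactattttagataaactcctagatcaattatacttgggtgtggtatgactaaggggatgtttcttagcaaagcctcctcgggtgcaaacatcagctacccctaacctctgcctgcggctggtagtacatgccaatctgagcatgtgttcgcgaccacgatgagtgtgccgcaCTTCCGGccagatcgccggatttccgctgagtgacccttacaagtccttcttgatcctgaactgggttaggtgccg
COX6A1 (chr12:120437863-120438142, plus strand): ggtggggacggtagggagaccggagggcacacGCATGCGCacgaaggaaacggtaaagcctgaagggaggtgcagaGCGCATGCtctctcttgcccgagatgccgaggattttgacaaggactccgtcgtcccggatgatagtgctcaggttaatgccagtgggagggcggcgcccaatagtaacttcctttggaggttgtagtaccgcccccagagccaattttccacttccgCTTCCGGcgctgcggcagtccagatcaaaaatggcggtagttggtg
ATP5MK (chr10:103396446-103396725, minus strand): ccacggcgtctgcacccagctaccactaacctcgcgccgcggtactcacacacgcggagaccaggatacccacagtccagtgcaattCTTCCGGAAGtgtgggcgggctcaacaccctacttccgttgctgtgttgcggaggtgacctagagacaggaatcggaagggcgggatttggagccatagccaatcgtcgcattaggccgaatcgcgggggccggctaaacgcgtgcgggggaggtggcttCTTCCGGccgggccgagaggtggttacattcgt

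SDHB held a match to each of the 3 motifs, and COX6A1 held a pair of NRF1 matches and a GABP match. In ATP5MK the first capitals are overlapping GABP matches on opposite strands. Over all 84 windows that RefSeq gives for 71 of the members, here with 50 bases after the start, the NRF1 letters occurred in 17.9%, against 5.4% of 9694 windows of tested genes and 3.1% of all 35116 windows. For YY1 the shares were 15.5%, 5.8% and 2.9%, and for GABP 26.2%, 19.2% and 10.3%. The E-box CACGTG (8.3%, 9.9% and 7.3%) and CCAAT (34.5%, 35.4% and 34.6%) had shares close to those of the other windows, and TATAAA was found in 8.3%, 6.1% and 11.5%. These motifs were searched on both strands and were picked with results in view, and a match is a description of letters and not a site in use. Members with the NRF1 letters (14 genes) had a median difference of -0.0463 and the 50 genes without them -0.0249. With and without GABP letters the medians were -0.087 (21 genes) and -0.0302 (43 genes). For YY1 letters they were -0.0302 (11 genes) and -0.0323 (53 genes), and for the E-box -0.031 (7 genes) and -0.0302 (57 genes). For CCAAT they were -0.0188 (23 genes) and -0.0324 (41 genes), and for TATAAA -0.0082 (5 genes) and -0.0323 (59 genes). Whether any motif goes with a difference between the libraries was not tested.

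None of the 77 members above the minimum reached a 2-fold difference, in a background where 0.0632% of all such genes were 2-fold higher with CCA-1.1 and 0.152% were 2-fold lower. Past a difference of 0.32 in either direction, a single member was higher with CCA-1.1 (COX7A2L) and no member was lower, against 4.33% and 3.62% of all genes. The median difference of the members was -0.029, beside 0.0039 for all 7906 genes. The quartiles were -0.10 and 0.047 for the members and -0.10 and 0.11 for all genes. Differences smaller than 0.1 were seen in 44 members (57.1%) and in 47.7% of all genes. Of the members, 28 were higher and 49 lower in the CCA-1.1 library, so that 36.4% were higher, where 51.1% of all genes were. Among genes averaging 100 TPM or more, the median was -0.0193 for 51 members and -0.027 for all 1499 genes.

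That split of higher and lower members depended on the scale. Genes for cytosolic ribosomal proteins held 9.10% of the DMSO library and 11.2% of the CCA-1.1 library. Since TPM add up to a fixed total, a larger share of these genes leaves a smaller share for the sum of the others. That holds for the sum and not for each gene. In TPM as deposited, 51.1% of all tested genes were higher, with a median of 0.0039. Whether the larger ribosomal share lowered the members was not tested. Leaving ribosomal protein genes out of both totals was a setting added after their values were seen. With it, 43 of the 77 members were higher instead of 28, and the median of the members was 0.005. Of all tested genes, 60.1% were then higher, with a median of 0.0372. Scaled instead by the median ratio of all tested genes, 27 members were higher and the median was -0.033. By complex, the medians without ribosomal protein genes in the totals were 0.0181 for complex I, -0.0635 for complex II, -0.0765 for complex III, 0.0304 for complex IV and 0.0098 for complex V, so that those of complexes I, IV and V changed sign. Counts of higher and lower genes given below, by complex or list, are in TPM as deposited, where 51.1% of all tested genes were higher. They depend on the scale too. Under each of these scalings the median of the members lay below that of all genes. Each scaling shifts all genes almost alike, so this order could hardly change and says nothing further. Among genes averaging 100 TPM or more the order was the reverse (-0.0193 for members and -0.027 for all genes). Differences of single genes close to 0 have no fixed direction, since they depend on the scale.

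**Figure D1:**
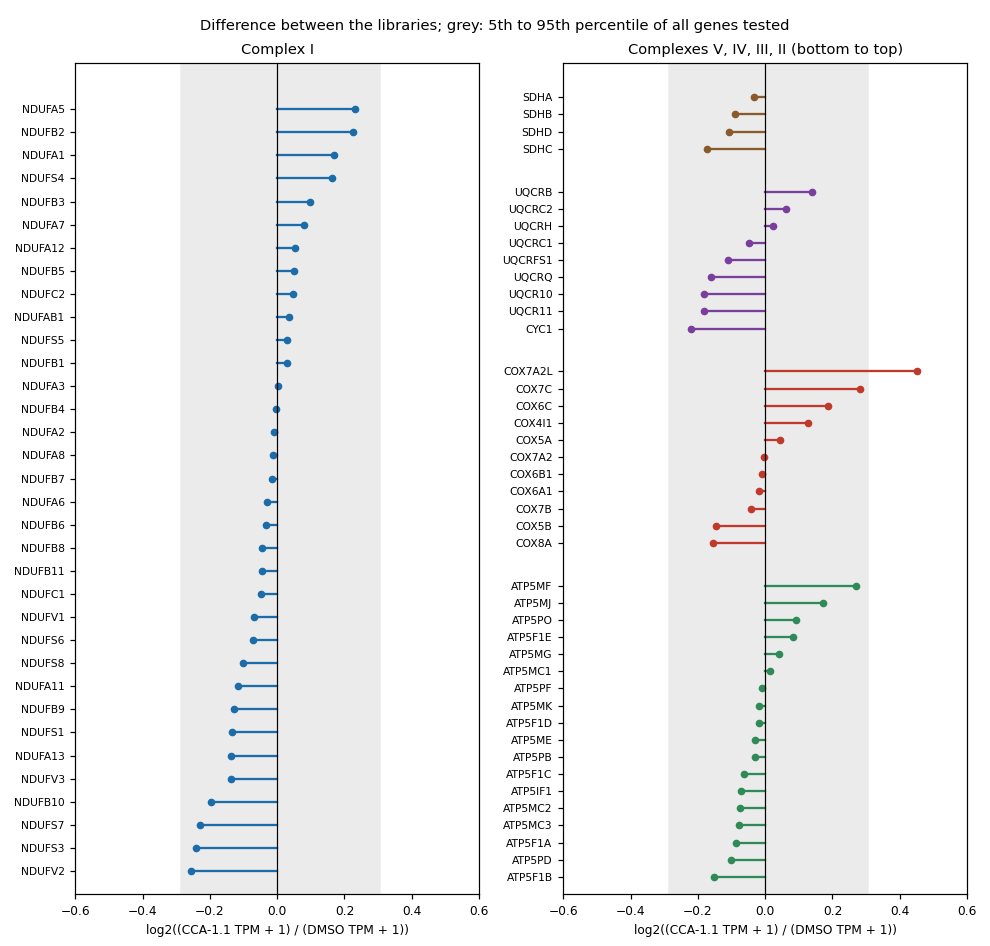
Difference between the CCA-1.1 and the DMSO library, log2((CCA-1.1 TPM + 1) / (DMSO TPM + 1)), for the members above the minimum of 10 TPM that are described here, by complex, sorted within a complex, with the 5th to 95th percentile of all 7906 tested genes (-0.29 to 0.31) in grey. COX7A2L, at 0.45, is the only gene drawn outside the grey band.

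Complex I, which oxidises NADH, had 35 of its 38 genes above the minimum, of which 14 were higher and 21 lower with CCA-1.1 (median -0.0157). Its median was 0.0181 with ribosomal protein genes left out of the totals. The N module, which binds NADH and passes its electrons on, had 2 of 8 genes higher and a median of -0.0698. Its flavin-carrying subunit NDUFV1 stood at 75.2 TPM with DMSO and 71.7 TPM with CCA-1.1 (difference -0.068). NDUFV2, an iron-sulfur subunit next to it, went from 195.0 to 163.2 TPM between the libraries, which at -0.26 was the lowest difference of all 77 members. Of all tested genes, 517 had a difference at or below that of NDUFV2. NDUFS1, the large iron-sulfur subunit, was at 27.2 and 24.7 TPM (-0.13), and NDUFV3, the lowest of the complex above the minimum, at 10.6 and 9.51 TPM (-0.14). NDUFS4, a small subunit known from inherited complex I deficiency, went the other way with 194.5 and 218.0 TPM (0.16).

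The Q module, where electrons reach ubiquinone, held members at both ends of the complex. NDUFS3 was at 327 TPM with DMSO and 276 TPM with CCA-1.1 (-0.24). NDUFS7, which carries the last iron-sulfur cluster before ubiquinone, was at 88.3 and 75.1 TPM (-0.23). NDUFS8, another iron-sulfur subunit, was at 282 and 263 TPM (-0.10). These 3 subunits were lower with CCA-1.1, whereas the accessory NDUFA5 was at 29.3 and 34.5 TPM (0.23), the highest difference of the complex above the minimum of 10 TPM.

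The subunits of the membrane arm named NDUFB and NDUFC, with NDUFS5, came closer together, with a median of -0.0098 over 14 genes and sums of 2493 and 2469 TPM. NDUFB10 was the lowest of them (101.0 and 88.0 TPM, -0.20) and NDUFB2 the highest (84.9 and 99.4 TPM, 0.22). NDUFB4 (463 and 462 TPM) and NDUFB9 (434 and 397 TPM) were the most abundant. Of the remaining accessory subunits, NDUFA13 had the highest level of the complex at 560 and 510 TPM (-0.14), and NDUFA1 was at 158.6 and 178.3 TPM (0.17). NDUFAB1, the mitochondrial acyl carrier protein, was at 87.2 and 89.3 TPM (0.035). The other genes of the complex described here lay between -0.12 for NDUFA11 and 0.098 for NDUFB3. Under the minimum were NDUFA9 (6.35 and 7.60 TPM), NDUFA10 (7.23 and 9.81 TPM, 0.39) and the readthrough gene NDUFC2-KCTD14 (0.69 and 0.51 TPM), which shares sequence with NDUFC2.

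Complex II, succinate dehydrogenase, also works in the TCA cycle and is the only complex encoded wholly in the nucleus. In TPM as deposited, all 4 of its genes were lower in the CCA-1.1 library, by small amounts (median -0.0973), where 51.1% of all tested genes were higher. The median was -0.0635 with ribosomal protein genes left out of the totals, and SDHA, the closest to 0, has no fixed direction. The flavoprotein SDHA was at 184.4 and 180.3 TPM (-0.032) and the iron-sulfur subunit SDHB at 338 and 318 TPM (-0.089). The membrane anchors SDHC and SDHD were at 30.9 and 27.3 TPM (-0.17) and at 115.0 and 106.8 TPM (-0.11). None of them lay outside the 5th to 95th percentile of all genes, -0.29 to 0.31.

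Complex III carries electrons from ubiquinol to cytochrome c, and 6 of its 9 genes above the minimum were lower with CCA-1.1 (median -0.11). CYC1, the cytochrome c1 that gives the electrons to cytochrome c, had 274 TPM with DMSO and 235 TPM with CCA-1.1 (-0.22). UQCRFS1, the Rieske iron-sulfur protein, was at 62.6 and 58.0 TPM (-0.11). The small subunits UQCR11 (103.2 and 90.8 TPM, -0.18), UQCR10 (113.1 and 99.5 TPM, -0.18) and UQCRQ (70.1 and 62.6 TPM, -0.16) were lower too. The core protein UQCRC1 (422 and 408 TPM, -0.048) stood near 0 and its partner UQCRC2 (182.6 and 190.7 TPM, 0.062) slightly above. UQCRH, the hinge protein, was the most abundant of the complex at 815 and 828 TPM (0.023), and UQCRB, the subunit near the quinone site and the least abundant above the minimum, was at 28.8 and 31.8 TPM (0.14). UQCRHL, at 3.66 and 2.95 TPM, is a close copy of UQCRH, and reads of both may have been divided uncertainly.

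Complex IV, cytochrome c oxidase, had the widest spread of differences among the complexes, with an SD across its 11 genes above the minimum of 0.18, against 0.12 in complex I, 0.0575 in complex II, 0.13 in complex III and 0.10 in complex V. That SD includes COX7A2L at 0.45, and the Q module within complex I had a wider SD, 0.21 over 5 genes. In complex IV, 5 of the 11 genes were higher and 6 lower (median -0.0036). COX7A2L, known as a factor that joins complexes III and IV into supercomplexes, was at 137.5 TPM with DMSO and 188.1 TPM with CCA-1.1. Its difference of 0.45 was the highest of all members, and 110 of the 7906 genes reached it. COX7C followed with 589 and 717 TPM (0.28), then COX6C with 194.6 and 221.5 TPM (0.19). On the other side were COX8A (496 and 446 TPM, -0.15), COX5B (449 and 405 TPM, -0.15) and COX7B (89.95 and 87.3 TPM, -0.043). COX6A1 had the highest level of all members, at 1055 TPM with DMSO and 1041 TPM with CCA-1.1 (-0.019). COX6B1, which faces cytochrome c (523 and 520 TPM, -0.0084), and COX5A (217.5 and 224.1 TPM, 0.043) hardly differed.

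Complex IV is also the complex with tissue isoforms, and in U87 cells each pair was held by the general form. COX4I1 was at 483 and 528 TPM (0.13), while COX4I2, the form of lung, was listed at 0 in both libraries. COX6A1 stood against COX6A2, the muscle form, which was listed at 0, and COX6B1 against COX6B2, the testis form, at 0.25 TPM in either library. COX7A2 was at 239.6 and 239.0 TPM, and COX7A1, its muscle counterpart, at 0.29 TPM with DMSO and listed at 0 with CCA-1.1. COX7B2 and COX8C, both known from testis, were listed at 0 too. No isoform pair changed its leading form between the libraries. The gene long named NDUFA4, now counted with complex IV, is listed by RefSeq as COXFA4 and so falls outside the rule by name. It was at 117.4 and 132.2 TPM (0.17), and its relative COXFA4L2, formerly NDUFA4L2, at 0.57 and 0.69 TPM.

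Complex V, ATP synthase, had 18 of its 20 genes above the minimum, 6 of them higher and 12 lower (median -0.0241). Its median was 0.0098 with ribosomal protein genes left out of the totals. In the catalytic head, ATP5F1B, the beta subunit that forms ATP, was at 713 and 642 TPM (-0.15), the lowest difference among those 18, and ATP5F1A, the alpha subunit, at 132.4 and 124.6 TPM (-0.087). The central stalk genes ATP5F1C (345 and 331 TPM), ATP5F1D (192.5 and 190.0 TPM) and ATP5F1E (38.8 and 41.2 TPM) lay between -0.062 and 0.084, with ATP5F1E as the least abundant of the complex above the minimum. Of the outer stalk, ATP5PD was at 407 and 379 TPM (-0.10) and ATP5PO at 284 and 302 TPM (0.090), while ATP5PB and ATP5PF differed by -0.031 and -0.0082. ATP5IF1, the inhibitor that stops the enzyme from running backwards, was at 376 and 357 TPM (-0.073).

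The highest differences of ATP synthase above the minimum were those of ATP5MF and ATP5MJ in its membrane part. Its other membrane genes above the minimum lay between -0.077 for ATP5MC3 and 0.042 for ATP5MG. ATP5MF, subunit f, was at 248 TPM with DMSO and 299.7 TPM with CCA-1.1 (0.27), and ATP5MJ, a small membrane subunit, at 250.3 and 282 TPM (0.17). ATP5MK, another small membrane subunit, had the highest level of the complex at 799 and 788 TPM (-0.019), and ATP5ME and ATP5MG differed by -0.029 and 0.042. The readthrough gene ATP5MF-PTCD1, which shares sequence with ATP5MF, was at 0.87 and 0.32 TPM, and ATP5MGL, a close copy of ATP5MG, at 0.62 and 1.15 TPM. The ring that rotates in the membrane is built from subunit c, which ATP5MC1, ATP5MC2 and ATP5MC3 all encode with the same mature protein. ATP5MC1 was at 261.5 and 264.1 TPM, ATP5MC2 at 281 and 267 TPM and ATP5MC3 at 93.7 and 88.7 TPM. Together they gave 636 and 619.5 TPM, with ATP5MC2 ahead in both libraries.

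The members have 267 transcripts in the table, from 1 transcript for 34 of the genes to 13 for ATP5MC2, and 32 transcripts were listed at 0 in both libraries. Kallisto estimates how reads shared by several transcripts are divided, so these values are less certain than gene sums. Of these, 6 (2.25%) passed 2-fold, close to the background of 2.27% of all transcripts of protein-coding genes. Among the 169 member transcripts with a mean of at least 1 TPM it was again these 6, or 3.55%, where the background was 5.94%. They belong to 4 genes, and none exceeded 5.62 TPM in either library. In ATP5F1C, NM_001320886.2 was at 1.85 and 5.62 TPM and XM_047425254.1 at 0.05 and 3.43 TPM. In COX4I1, NM_001318802.2 was at 1.43 and 4.13 TPM and XM_047433623.1 at 2.91 TPM with DMSO and listed at 0 with CCA-1.1. The last pair were ATP5F1A NM_001001937.2 (1.1 and 3.21 TPM) and NDUFC1 NM_002494.3 (0.94 and 3.18 TPM). For all 77 genes the transcript with the highest value was the same in both libraries, and in 56 of them it held at least 90% of the gene in each.

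As Kallisto divided the reads, the higher value of COX7A2L was not confined to a single transcript. All 5 of its curated coding transcripts were higher with CCA-1.1. Transcripts of the same gene share reads, so these values are not independent of each other. The leading one, NM_001319037.1, was at 60.0 and 88.6 TPM, and NM_001319040.2, the next, at 57.3 and 67.8 TPM. Their shares of the gene were 43.7% and 47.1% for the first and 41.7% and 36.0% for the second. NM_001319036.1 was at 12.1 and 16.3 TPM, NM_004718.4 at 4.31 and 8.11 TPM, and NM_001319038.2 at 3.41 and 7.22 TPM. For ATP5MF the main transcript, NM_001003713.4, carried most of the difference, at 180.5 and 228.8 TPM, whereas NM_001039178.4 was at 41.7 and 45.1 TPM. COX7C and NDUFS3 have 1 transcript each in the table.

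Around the subunits stand the proteins that build the complexes. Counts and extremes of this and the following lists are over genes above the minimum. Of the complex I assembly factors, 13 of 16 passed the minimum, with 8 higher and 5 lower (median 0.0545). NDUFAF3 (83.7 and 65.3 TPM, -0.35) and NDUFAF8 (49.5 and 43.4 TPM, -0.18) were the lowest, and NDUFAF4 (10.1 and 12.4 TPM, 0.27) and NDUFAF2 (105.8 and 119.8 TPM, 0.18) the highest. For complex IV, 13 of 20 factors were higher (median 0.0629), led by LRPPRC, which stabilises mitochondrial mRNAs (80.7 and 97.2 TPM, 0.26), and HIGD2A (131.4 and 152.6 TPM, 0.21). SCO2, which carries copper to the enzyme, was the lowest at 18.3 and 13.1 TPM (-0.45), followed by SURF1 (47.6 and 45.4 TPM, -0.068). Complex III factors had 4 of 5 genes higher (median 0.0369), from UQCC2 (19.2 and 18.1 TPM) to LYRM7 (10.5 and 12.7 TPM, 0.25) and TTC19 (30.6 and 36.1 TPM, 0.23), with UQCC1 at 86.4 and 88.2 TPM. Of the complex II factors SDHAF3 was at 11.1 and 14.9 TPM (0.39), SDHAF1 at 45.5 and 43.7 TPM and SDHAF2 at 52.5 and 48.5 TPM, and of those for ATP synthase TMEM70 was at 34.7 and 31.4 TPM and ATPAF2 at 17.1 and 17.7 TPM. None of these factors passed 2-fold.

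Mobile electron carriers and coenzyme Q enzymes had 6 of 13 genes higher (median -0.0156). Cytochrome c itself, CYCS, was at 47.4 and 51.5 TPM (0.12), COQ5 at 14.7 and 18.2 TPM (0.29) and ETFDH at 15.9 and 18.9 TPM (0.23), with GPD2 (39.4 and 34.9 TPM, -0.17) and COQ6 (11.9 and 10.7 TPM, -0.14) at the other end. Among the regulators of respiratory genes, 8 of 11 were higher (median 0.12). The coactivator PPARGC1A was at 16.9 and 14.3 TPM (-0.23) and HCFC1 at 39.5 and 33.7 TPM (-0.22), while CREB1 was at 17.0 and 21.5 TPM (0.33) and PPRC1 at 12.4 and 14.6 TPM (0.22). NRF1 did not reach the minimum, at 5.87 and 5.81 TPM. The TCA cycle, which feeds the chain with NADH and succinate, had 8 of 17 genes higher and a median of -0.0048. It held the lowest single value of these lists, IDH2 at 106.3 TPM with DMSO and 73.6 TPM with CCA-1.1 (-0.52). SUCLG1 (84.0 and 107.8 TPM, 0.36) and FH (13.1 and 15.3 TPM, 0.21) were the highest.

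Other large complexes made of many small subunits were set beside the respiratory chain. Cytosolic ribosomal protein genes had 79 of 81 genes higher with CCA-1.1 and a median of 0.31, so that their quartiles (0.20 and 0.36) lay above the 75th percentile of the respiratory members, 0.047. Their highest genes were RPS23 (106.8 and 169.5 TPM, 0.66) and RPL12 (708 and 1028 TPM, 0.54), and RPL26L1 (47.9 and 45.0 TPM, -0.087) and RPL7L1 (39.0 and 37.2 TPM, -0.067) were lower. Mitochondrial ribosomal proteins, which make the subunits encoded in mitochondrial DNA, had 37 of 69 genes higher and a median of 0.0226, from MRPL53 (88.8 and 71.7 TPM, -0.30) and MRPS6 (548 and 457 TPM, -0.26) to MRPL58 (23.8 and 30.7 TPM, 0.36) and MRPL46 (17.1 and 25.1 TPM, 0.53). Proteasome genes, taken by their PSMA, PSMB, PSMC or PSMD symbols and not by a place in the mature complex, had 11 of 37 higher (median -0.0917). They ran from PSMB9 (26.0 and 21.1 TPM, -0.29) and PSMB8 (94.8 and 77.2 TPM, -0.29) to PSMD3 (68.0 and 78.4 TPM, 0.20) and PSMD5 (28.0 and 33.3 TPM, 0.24). With 1 library per condition none of these group differences has a test. Transcripts of the members were short, with a median length of 1584 bases for the longest GENCODE transcript of each gene, against 3698 bases for all tested genes. In the shortest of 5 length bins, from 399 to 2094 bases, the median difference was -0.0193 for 49 members and -0.0115 for all 1566 genes. In the next bin it was -0.0433 for 15 members and 0.0148 for all genes. The 3 bins of longer transcripts held 6, 4 and 3 members, with medians of 0.0465, -0.1071 and 0.1384 against 0.0089, 0.0108 and 0.0006, so that members were above all genes in a pair of them and below in the other.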

How the data were processed

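RNA of U87 cells treated for 72 h with DMSO or CCA-1.1 was sequenced by the authors from mRNA-enriched libraries, 1 per condition. Reads were checked with FastQC 0.11.9 and MultiQC 1.1 and quantified with Kallisto on human RefSeq transcripts (GRCh38.p14). The deposited values are TPM per transcript, rounded to 2 decimals; the methods name this unit, and the columns add up to 999999 and 1000000. Read depth does not follow from TPM, so its precision is unknown. Of 177816 transcripts, 169966 matched a gene symbol in the RefSeq table of GRCh38.p14, and TPM were summed per gene. Differences are log2 ratios with a pseudocount of 1 TPM, for genes averaging 10 TPM or more. The methods' edgeR test was not run, since it needs counts. Calls are a 2-fold threshold, as in the methods, and a difference of 0.32 in either direction. The members, lists and thresholds were chosen with earlier results of these data known. Named were the 3 highest and 3 lowest differences per complex, the highest and lowest levels, catalytic subunits, isoform pairs and, per related list, the 2 highest and 2 lowest genes. A member and a gene of a related list that fall under this rule are not reported here. Other genes and transcripts were named after their values were seen. The calculation was tested on simulated data with planted changes well past 2-fold, which does not bear on differences as small as those of the members. Python 3.11.15, numpy 2.4.6, pandas 2.3.3 and matplotlib 3.10.9 were used.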

Additional observations from a re-analysis of the deposited data

How the results depend on the processing

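No paired analysis was possible because each condition had a single library, and none could be left out. Without a spread between replicates, medians and log2 ratios of sums were held to have moved at 0.1 or more, and counts at more than 1.5 times. Pseudocounts of 0.1 and 0.01 TPM, a minimum mean of 1 TPM or none, median-ratio scaling, curated or coding transcripts only, and readthrough genes left out gave medians of the members between -0.033 and -0.0193, and 27 to 31 members higher. With ribosomal protein genes left out of the totals, added after the data were seen, 43 were higher and the median was 0.005. No alternative gave a member past 2-fold, but each was applied alone. With no minimum the pseudocount stayed at 1 TPM, so a gene under 1 TPM in both libraries could not pass. The readthrough gene ATP5MF-PTCD1 (0.87 and 0.32 TPM) had a plain ratio of 0.368. Past a difference of 0.32 there were 2 members with a minimum of 1 TPM and 5 with none, since genes at low TPM enter. The complex II assembly factors had a median of 0.1679 with a minimum of 1 TPM, where SDHAF4 (3.54 and 6.87 TPM) enters. With a pseudocount of 0.1 TPM, 32 transcripts passed 2-fold in place of 6. The unknown depth limits the values under 10 TPM most.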

Other observations

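Loci that carry the name of a respiratory gene without coding for protein were low in both libraries. The divergent transcript NDUFA6-DT was at 1.96 TPM with DMSO and 1.06 TPM with CCA-1.1, NDUFV1-DT at 0.23 and 0.27 TPM, and the antisense RNAs NDUFB2-AS1 and NDUFV2-AS1 at 0.94 and 0.88 TPM and at 2.38 and 1.78 TPM. The transcribed pseudogenes ATP5PFP3 and UQCRBP1 were listed at 0. Whether the counting used strand is not given in the sources used here, so reads of NDUFB2 and NDUFV2 and of their antisense partners cannot be told apart with certainty.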
